A study of Mus musculus with 24 samples.

Results

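Inflammatory and regulatory cytokines were followed in mouse epididymal white adipose tissue (eWAT) through 6 genes, Tnf, Il1b, Il1rn, Il10, Il18 and Tgfb1. They were chosen by gene symbol alone, from 16730 genes in the count table, and all 6 are among the 15020 genes that passed the filter on low counts. The study asked how diet and the loss of laminin alpha 4 from adipocytes alter fat tissue, and RNA from 24 male mice was sequenced from the 3′ end of transcripts with QuantSeq, 1 library per mouse and 6 mice per group. Littermate controls had both Lama4 alleles floxed (Lama4 fl/fl, with loxP sites on either side of exon 3) and no deletion, and adipocyte-specific knockouts (Lama4 AKO) had the same floxed alleles and Cre recombinase under the adiponectin promoter, which is active in adipocytes only, so that other cells of the tissue keep Lama4. Both genotypes were fed breeder chow or a high-fat diet (HFD) with 45% fat for 20 weeks and were 24 to 26 weeks old at collection. Per the study's figure legends, chow was fed from weaning to an age of 24 weeks, and HFD from 6 to 26 weeks. By these legends diet cannot be told apart from age and from the start of feeding.

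Tumour necrosis factor (Tnf) and interleukin-1 beta (Il1b) are pro-inflammatory cytokines that activate NF-kappaB through their receptors. The product of Il1rn occupies the interleukin-1 receptor without signalling and so blocks Il1b, and Il18 is a second cytokine that, like Il1b, is released by caspase-1 after inflammasome activation. Interleukin-10 (Il10) and transforming growth factor beta 1 (Tgfb1) restrain inflammatory cells, the latter also driving matrix production once it is freed from a latent complex. In obese fat tissue most of these transcripts are made by macrophages and other immune cells, and in whole tissue fewer cells of a type and less RNA per cell cannot be told apart.

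Libraries held 5579590 to 18764516 counts. Lama4 itself did not separate the genotypes on chow, with a median of 91.1 CPM (counts scaled to the size of the library) in Lama4 fl/fl and 114 in Lama4 AKO mice (exact permutation p = 0.511), and it was 79.8 and 44.3 CPM on HFD (exact permutation p = 0.143). Reads from the 3′ end lie outside the deleted exon, so these values do not show whether the exon was deleted, and the genotypes are those of the labels. By quantitative PCR the study reported less Lama4 in eWAT of chow-fed knockouts than of controls. The counts of chow-fed mice labelled Lama4 AKO were not lower, and the reason for this difference was not tested. The 12 macrophage markers were detected in every group, their summed level running from 1999 to 14010 CPM in chow-fed Lama4 fl/fl, 2825 to 10050 in chow-fed Lama4 AKO, 2823 to 15720 in HFD-fed Lama4 fl/fl and 8703 to 14500 CPM in HFD-fed Lama4 AKO mice. The 8 adipocyte markers, which define the labelled tissue, summed to at least 8803 CPM in every library.

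Promoters are shown for the genes in which a searched motif was found on the strand of the gene. RefSeq sequences (GRCm38.p6) were at hand for 5 of the 6 genes, and the 250 bases before the start are printed for 3 of them, 5′ to 3′ on the strand of the gene. Capitals mark a TATA element (TATAAA) in Tnf, at chr17:35202008-35202257 on the reverse strand, and in Il1b, at chr2:129371140-129371389 on the reverse strand, and a match to the kappaB consensus in Tgfb1, at chr7:25686752-25687001 on the forward strand.
Tnf: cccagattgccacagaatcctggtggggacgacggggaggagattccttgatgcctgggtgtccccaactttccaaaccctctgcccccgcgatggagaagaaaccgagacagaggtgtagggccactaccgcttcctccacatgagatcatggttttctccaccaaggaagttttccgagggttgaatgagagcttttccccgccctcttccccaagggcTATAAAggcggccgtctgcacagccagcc
Il1b: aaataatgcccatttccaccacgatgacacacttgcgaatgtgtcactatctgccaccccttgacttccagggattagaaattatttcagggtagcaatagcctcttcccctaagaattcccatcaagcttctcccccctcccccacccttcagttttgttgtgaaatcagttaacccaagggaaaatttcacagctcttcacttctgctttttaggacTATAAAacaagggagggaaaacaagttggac
Tgfb1: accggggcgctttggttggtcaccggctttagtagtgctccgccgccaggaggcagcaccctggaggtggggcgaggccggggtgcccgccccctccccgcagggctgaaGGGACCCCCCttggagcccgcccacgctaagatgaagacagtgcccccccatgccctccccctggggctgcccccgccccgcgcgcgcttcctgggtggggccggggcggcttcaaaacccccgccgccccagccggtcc
The TATA element lay 29 to 24 bases before the start of Tnf and 31 to 26 before that of Il1b, and on the opposite strand of Il18 175 to 170 bases before its start. It was found on either strand in 12.4% of 32851 promoters of that length. The kappaB consensus, held by 7.25% of promoters on either strand, matched in Tgfb1 140 to 131 bases before the start on both strands at once, and its letters are not in these windows of Tnf, Il1b, Il1rn and Il18. The GC content was 75.2% in Tgfb1, 57.6% in Tnf, 44.4% in Il1b and 35.6% in Il18, against a median of 52.4% over all promoters.

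No cytokine gene was called in any comparison with all 24 mice. A call needed a fold change of 1.5 or more, an edgeR p of 0.001 or less, and 2 CPM or more as the mean of the higher group. Under HFD, 0 of 6 genes were called in Lama4 fl/fl mice, where 0.186% of all genes were, and 0 of 6 in Lama4 AKO mice, where 4.28% were. Between genotypes, 0 of 6 were called on HFD (0.16% of all genes) and 0 of 6 on chow (0.126%), and 0 of 6 differed in their response to diet between genotypes (0.366%). Nor was any of the 6 called for diet averaged over genotypes (2.3%), genotype averaged over diets (0.0333%), the 2 contrasts that change both factors, knockouts on HFD against controls on chow (2.18%) and controls on HFD against knockouts on chow (0.146%). At an unadjusted p under 0.05 there was 1 member in Lama4 fl/fl mice on HFD, Il10, against 9.25% of all genes, and none in Lama4 AKO mice, against 39.9%. Between genotypes none passed that level, the lowest edgeR p of a member being 0.130 on HFD and 0.203 on chow. The share of all genes at that level is not given for the genotype comparisons, so these counts cannot be set against it. Groups overlapped for every member in the 4 comparisons of diet within genotype and genotype within diet, whereas they did not overlap for 0.233% of genes in Lama4 fl/fl and 6.96% in Lama4 AKO mice under diet, 0.479% between genotypes on HFD and 0.233% on chow.

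**Figure D1:**
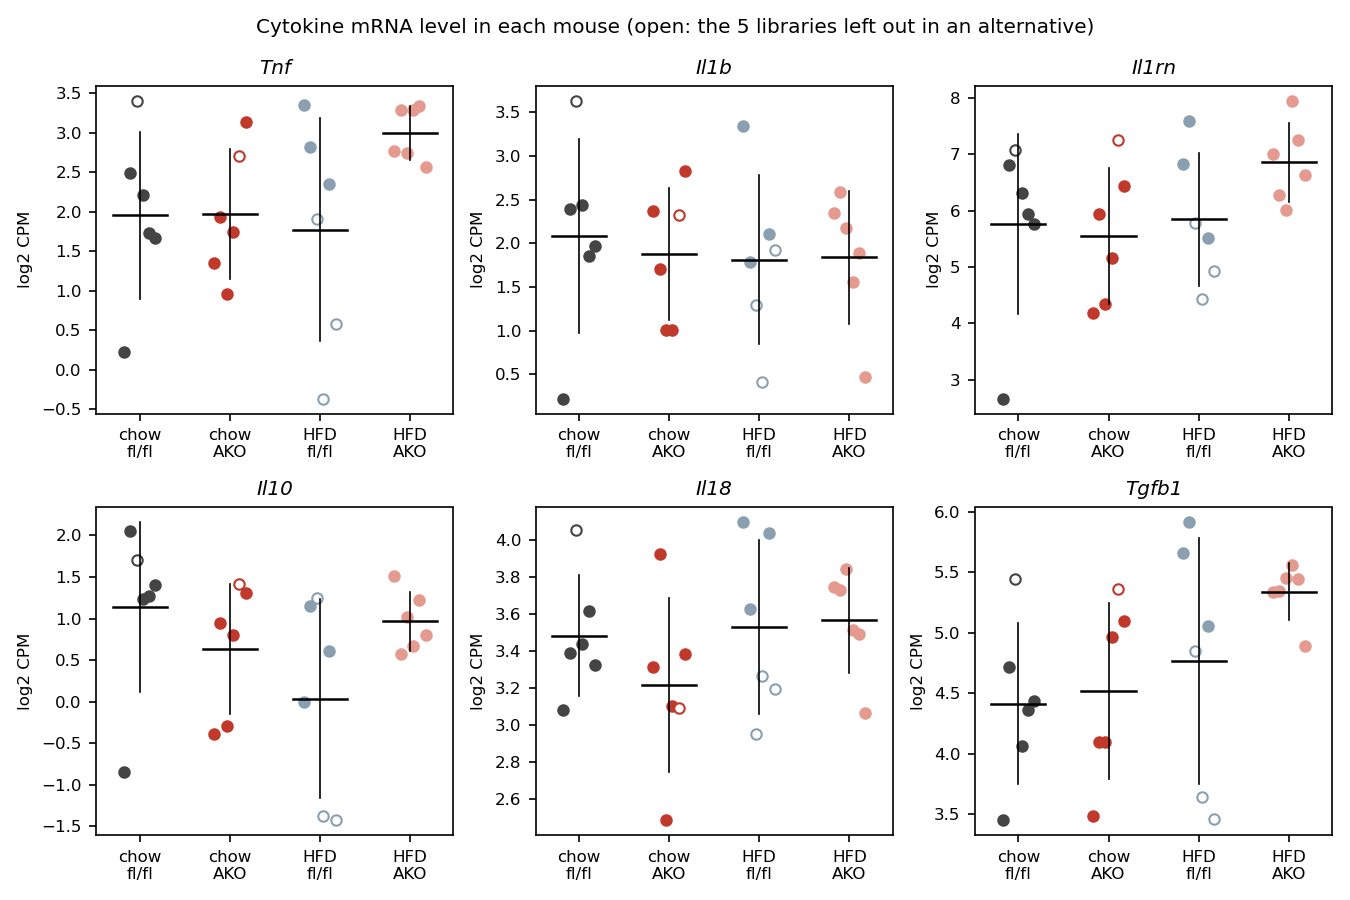
Level of each cytokine transcript in each mouse on the log2 CPM scale, by group, with the mean as a bar and the SD as a vertical line (n = 6); open points are the 5 libraries left out in an alternative. The HFD-fed Lama4 AKO mice lie closest together for Tnf, Il1rn, Il10, Il18 and Tgfb1, and every pair of groups overlaps.

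Tnf (ENSMUSG00000024401) lies on the reverse strand of chromosome 17, from 35199381 to 35202007 of GRCm38. In chow-fed Lama4 fl/fl mice it ran from 1.02 to 10.4 CPM around a median of 3.82, and in chow-fed Lama4 AKO mice from 1.797 to 8.66 around 3.42. HFD-fed Lama4 fl/fl mice had the widest range, from 0.628 to 10.1 CPM around 4.28, and HFD-fed Lama4 AKO mice the narrowest, from 5.75 to 9.99 around 8.11. The lowest HFD-fed knockout thus stood above 5 of the 6 chow-fed controls, though 1 chow-fed control reached the top of the knockout range. The estimate for HFD in Lama4 fl/fl mice was near 0 (log2 fold change 0.00, fold 0.998, 95% interval 0.482 to 2.06, edgeR adjusted p = 0.998). In Lama4 AKO mice the estimate for HFD was 1.86-fold (95% interval 0.892 to 3.88, edgeR adjusted p = 0.192). An exact permutation test of the 12 Lama4 AKO mice alone gave p = 0.0195. It does not pool the spread with the Lama4 fl/fl groups. In that comparison 44.9% of all genes had an exact permutation p under 0.05. Between genotypes on HFD the estimate was 1.74-fold (95% interval 0.840 to 3.59, adjusted p = 0.441, exact permutation p = 0.0584).

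Il1b (ENSMUSG00000027398) lies on the reverse strand of chromosome 2 from 129364570 to 129371139, where the antisense gene Il1bos overlaps it. Its level was 1.02 to 12.2 CPM in chow-fed Lama4 fl/fl, with a median of 4.43, and 1.86 to 6.93 in chow-fed Lama4 AKO mice, with a median of 3.99. On HFD it was 1.18 to 9.999 CPM with a median of 3.47 in Lama4 fl/fl and 1.24 to 5.85 with a median of 3.96 in Lama4 AKO mice. The 4 medians lay within 1 CPM of each other, and no group stood apart. Unlike Tnf, Il1b had no higher estimate in HFD-fed knockouts: the fold was 0.967 against chow in Lama4 AKO mice (95% interval 0.476 to 1.97) and 0.923 against Lama4 fl/fl mice on HFD (0.457 to 1.87).

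Il1rn (ENSMUSG00000026981), the receptor antagonist gene, lies on the forward strand of chromosome 2 from 24336853 to 24351494. It ran from 6.20 to 136 CPM around a median of 70.5 in chow-fed Lama4 fl/fl mice and from 18.2 to 154 around 48.4 in chow-fed Lama4 AKO mice. On HFD it ran from 21.6 to 193 CPM around 50.2 in Lama4 fl/fl and from 64.1 to 247 around 115 in Lama4 AKO mice. The lowest value by far was a single chow-fed control, replicate 1, which was also the lowest of its group for Tnf, Il1b, Il10, Il18 and Tgfb1 and had the lowest macrophage marker sum of all 24 mice. The HFD response was 2.06-fold in Lama4 AKO mice (95% interval 0.875 to 4.86, edgeR adjusted p = 0.192, exact permutation p = 0.0541) and 1.02-fold in Lama4 fl/fl mice (0.437 to 2.38, adjusted p = 0.991). The difference between these 2 responses was 1.02 on the log2 scale with an SE of 0.840 (edgeR adjusted p = 0.527).

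Set against its ligand within each library, Il1rn exceeded Il1b by a geometric mean of 12.9 in both chow-fed groups, 16.4 in HFD-fed Lama4 fl/fl and 32.5 in HFD-fed Lama4 AKO mice. This ratio of CPM is a within-mouse scale and not a ratio of molecules, because the transcripts differ in length and in how well each is captured. Individual ratios ran from 13.01 to 83.9 in HFD-fed Lama4 AKO mice, with a median of 33.6, and from 3.55 to 30.7 in chow-fed Lama4 AKO mice, with a median of 15.1. Those groups overlapped, and the ratio was 2.53 times as high on HFD in Lama4 AKO mice (1.34 on the log2 scale, SE 0.640, exact permutation p = 0.0671) against 1.28 times in Lama4 fl/fl mice (p = 0.509 by the same exact test). It did not differ by genotype beyond the spread between mice, on HFD (1.98 times, exact permutation p = 0.145) or on chow (1.003 times, exact permutation p = 0.998).

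Il10 (ENSMUSG00000016529) lies on the forward strand of chromosome 1 from 131019845 to 131024974 and was the scarcest member, with 3 to 52 counts in a library. Chow-fed Lama4 fl/fl mice had 0.406 to 4.01 CPM around a median of 2.38, and chow-fed Lama4 AKO mice 0.618 to 2.52 around 1.69. HFD-fed Lama4 fl/fl mice had 0.223 to 2.22 CPM around 1.11, and HFD-fed Lama4 AKO mice 1.34 to 2.70 around 1.73. It was the one member with a lower estimate on HFD in Lama4 fl/fl mice at an unadjusted p under 0.05, 0.483-fold (95% interval 0.239 to 0.977, edgeR p = 0.0435, adjusted p = 0.513), and the exact permutation test of those 12 mice gave p = 0.115. Without chow-fed Lama4 fl/fl replicate 1 the exact permutation p was 0.0130, without any other mouse of these groups the exact p ran from 0.0779 to 0.221, and without 5 libraries left out in an alternative it was 0.518, at a difference of -0.48 on the log2 scale. Leaving out each mouse in turn kept the fitted estimate between -1.32 and -0.87 on the log2 scale. In Lama4 AKO mice the estimate on HFD was 1.196-fold (0.587 to 2.44), and the difference between the responses was 1.31 on the log2 scale (SE 0.699, edgeR adjusted p = 0.354).

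Il18 (ENSMUSG00000039217), on the forward strand of chromosome 9 from 50554827 to 50581840, overlaps Bco2 and Tex12 on the opposite strand. It had the narrowest spread between mice of the 6 members in every group but HFD-fed Lama4 AKO, where Tgfb1 had a narrower one, and ran from 8.33 to 16.5 CPM in chow-fed Lama4 fl/fl, 5.46 to 15.1 in chow-fed Lama4 AKO, 7.59 to 17.0 in HFD-fed Lama4 fl/fl and 8.22 to 14.2 CPM in HFD-fed Lama4 AKO mice, with medians of 10.5, 9.13, 10.9 and 12.2. The 95% intervals of the fold were correspondingly narrow, 0.763 to 1.46 for HFD in Lama4 fl/fl and 0.895 to 1.72 in Lama4 AKO mice, and 0.719 to 1.38 for genotype on HFD. The other 5 members had wider intervals in each of these comparisons, and with all 24 mice no interval of Il18 in them reached a doubling.

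Tgfb1 (ENSMUSG00000002603), on the forward strand of chromosome 7 from 25687002 to 25705077, was the member with the smallest p for diet averaged over genotypes. It ran from 10.8 to 43.5 CPM around a median of 20.9 in chow-fed Lama4 fl/fl and from 11.1 to 40.9 around 24.01 in chow-fed Lama4 AKO mice. On HFD it ran from 10.9 to 60.1 CPM around 31.0 in Lama4 fl/fl, and from 29.5 to 47.2 around 42.0 in Lama4 AKO mice. Of the 6 HFD-fed Lama4 fl/fl mice, 2 exceeded every HFD-fed knockout and 2 fell near the lowest chow-fed mice. Averaged over genotypes, HFD went with a 1.52-fold level (95% interval 1.04 to 2.22, edgeR adjusted p = 0.111, with an unadjusted p under 0.05), where 35.9% of all genes had p under 0.05 and 2.3% were called. The fold was 1.63 in Lama4 AKO mice (0.948 to 2.79, adjusted p = 0.164, exact permutation p = 0.0281) and 1.41 in Lama4 fl/fl mice (0.824 to 2.42, adjusted p = 0.704). HFD-fed Lama4 AKO mice stood 1.76-fold above chow-fed Lama4 fl/fl mice (1.03 to 3.02, edgeR adjusted p = 0.149, with an unadjusted p under 0.05, as 30.2% of all genes had).

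**Figure D2:**
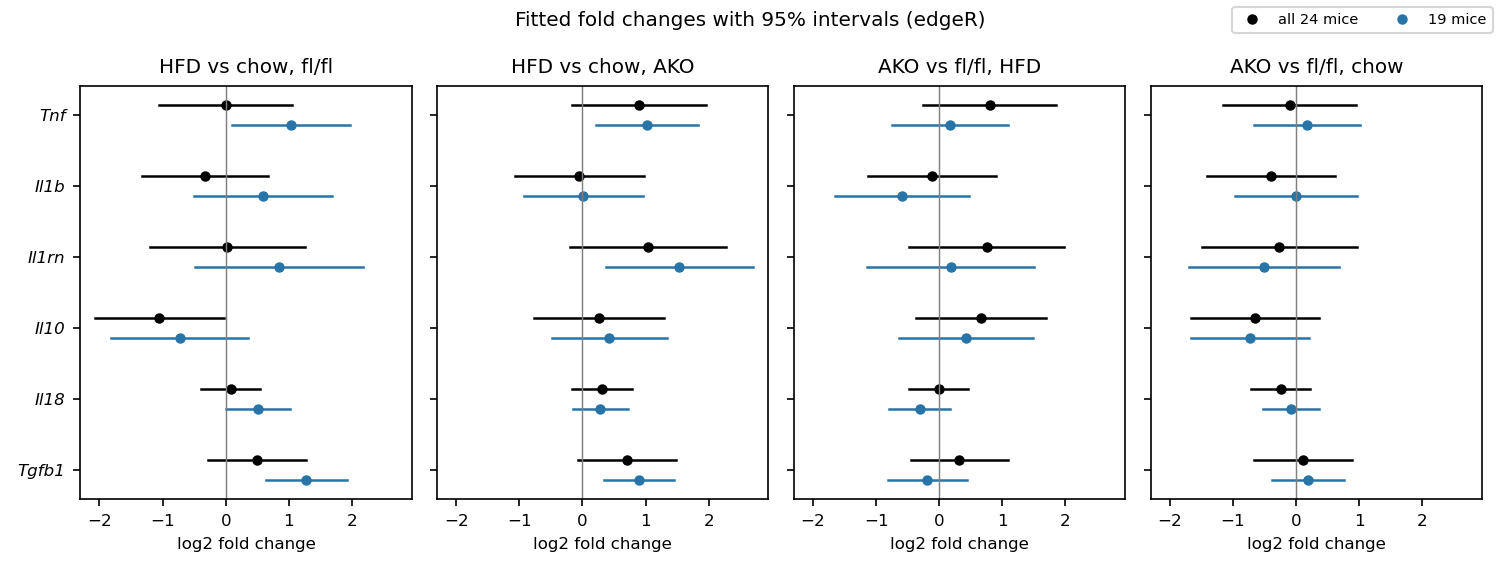
Fitted log2 fold changes (x axis) of the 6 cytokine genes with 95% intervals in 4 comparisons, with all 24 mice (black) and with 19 mice (blue). With all mice every interval but that of Il10 under diet in Lama4 fl/fl mice holds 0, and with 19 mice the intervals of Tnf, Il18 and Tgfb1 in Lama4 fl/fl mice and of Tnf, Il1rn and Tgfb1 in Lama4 AKO mice under diet lie above 0.

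Left out as an alternative were 5 libraries that an earlier analysis of these counts took to be those set aside by the study: replicates 3, 4 and 6 of HFD-fed Lama4 fl/fl, replicate 3 of chow-fed Lama4 fl/fl and replicate 5 of chow-fed Lama4 AKO mice. Which libraries the study set aside is not given in the sources used here. They include extreme values of the cytokines themselves, since the lowest HFD-fed Lama4 fl/fl value of all 6 genes, the highest chow-fed Lama4 fl/fl value of 5 and the highest chow-fed Lama4 AKO value of 3 were among them. With the other 19 mice Tgfb1 was called higher on HFD in Lama4 fl/fl mice (2.43-fold, 95% interval 1.56 to 3.77, edgeR adjusted p = 0.00481, with adjusted p from 0.00481 to 0.999 over 35 alternatives), where 11.8% of all genes were called. Leaving out chow-fed Lama4 fl/fl replicate 1 as well gave a log2 fold change of 1.13 (edgeR adjusted p = 0.00957), no longer a call because p was above 0.001, while Tgfb1 averaged over genotypes was still called at 1.02, with 21% of all genes. Averaged over genotypes Tgfb1 was 2.13-fold higher (1.59 to 2.84, edgeR adjusted p = 0.000256, and 0.000256 to 0.211 over the 34 alternatives of this comparison), where 21.5% of all genes were called, and 2.13-fold higher in HFD-fed knockouts than in chow-fed controls (1.45 to 3.12, edgeR adjusted p = 0.00564), where 10% were. In Lama4 AKO mice Tnf (2.04-fold), Il1rn (2.90-fold) and Tgfb1 (1.86-fold) had edgeR adjusted p of 0.0403, 0.0352 and 0.0115, where 40.4% of all genes had at most 0.05. No member was called between genotypes, on HFD (0.572% of all genes) or on chow (0.209%).

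The median SD over the 6 members, on the log2 CPM scale, was 1.04 in chow-fed Lama4 fl/fl, 0.772 in chow-fed Lama4 AKO, 1.10 in HFD-fed Lama4 fl/fl and 0.351 in HFD-fed Lama4 AKO mice, against 0.392, 0.375, 0.490 and 0.293 over all genes tested. Il18 had a smaller SD than the median gene in every group but chow-fed Lama4 AKO, and Tgfb1 in HFD-fed Lama4 AKO mice. HFD-fed Lama4 AKO mice had the smallest SD of the 4 groups for 5 of the 6 genes, all but Il1b, and for 48.1% of all genes. The range of Tgfb1 in these mice spanned 1.60-fold, against 5.53-fold in HFD-fed Lama4 fl/fl mice.

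Across the 24 mice the cytokines followed macrophage markers to different degrees. Pearson's r of log2 CPM with the log2 summed CPM of 12 macrophage markers was 0.916 for Il1rn (Spearman's rho 0.862), 0.903 for Tnf (0.890), 0.898 for Tgfb1 (0.917), 0.742 for Il10 (0.474), 0.596 for Il1b (0.482) and 0.590 for Il18 (0.658). Permutation p-values of r were 1e-05, the smallest that the permutations can give, for Il1rn, Tnf and Tgfb1, and 0.00012, 0.00197 and 0.00241 for Il10, Il1b and Il18, and those of rho were at most 0.0213. Adjusted over the 27 relations tested, which leave out other marker lists for which r was computed, the p of r was at most 0.00383 for these 6. Without the 2 mice farthest from the median of the marker sum, chow-fed Lama4 fl/fl replicate 1 and HFD-fed Lama4 fl/fl replicate 4, r was 0.876, 0.865 and 0.867 for Il1rn, Tnf and Tgfb1, 0.618 for Il10, 0.588 for Il18 and 0.385 for Il1b. Within groups, from deviations from the group means, r ran from 0.541 for Il18 to 0.932 for Tnf. With the summed T and NK cell markers r was higher than with macrophage markers for Il1b (0.709) and Il18 (0.639). It was lower for Tgfb1 (0.718), Tnf (0.685), Il1rn (0.508) and Il10 (0.432). Il10 had a higher rho with neutrophil markers (0.626) than with macrophage markers, though a lower r (0.565). These relations with other cell types were not tested. Both values of a pair come from 1 library and share its scaling, and a library with more immune RNA holds less adipocyte RNA. With the adipocyte marker sum r was -0.922 for Tgfb1 (rho -0.943) and -0.862 for Tnf (rho -0.884), each with a permutation p of 1e-05. The other members had weaker r, -0.750 for Il1rn, -0.501 for Il18, -0.478 for Il1b and -0.437 for Il10. For Il1b and Il10 rho was -0.375 and -0.301 (permutation p of rho 0.0711 and 0.152).

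**Figure D3:**
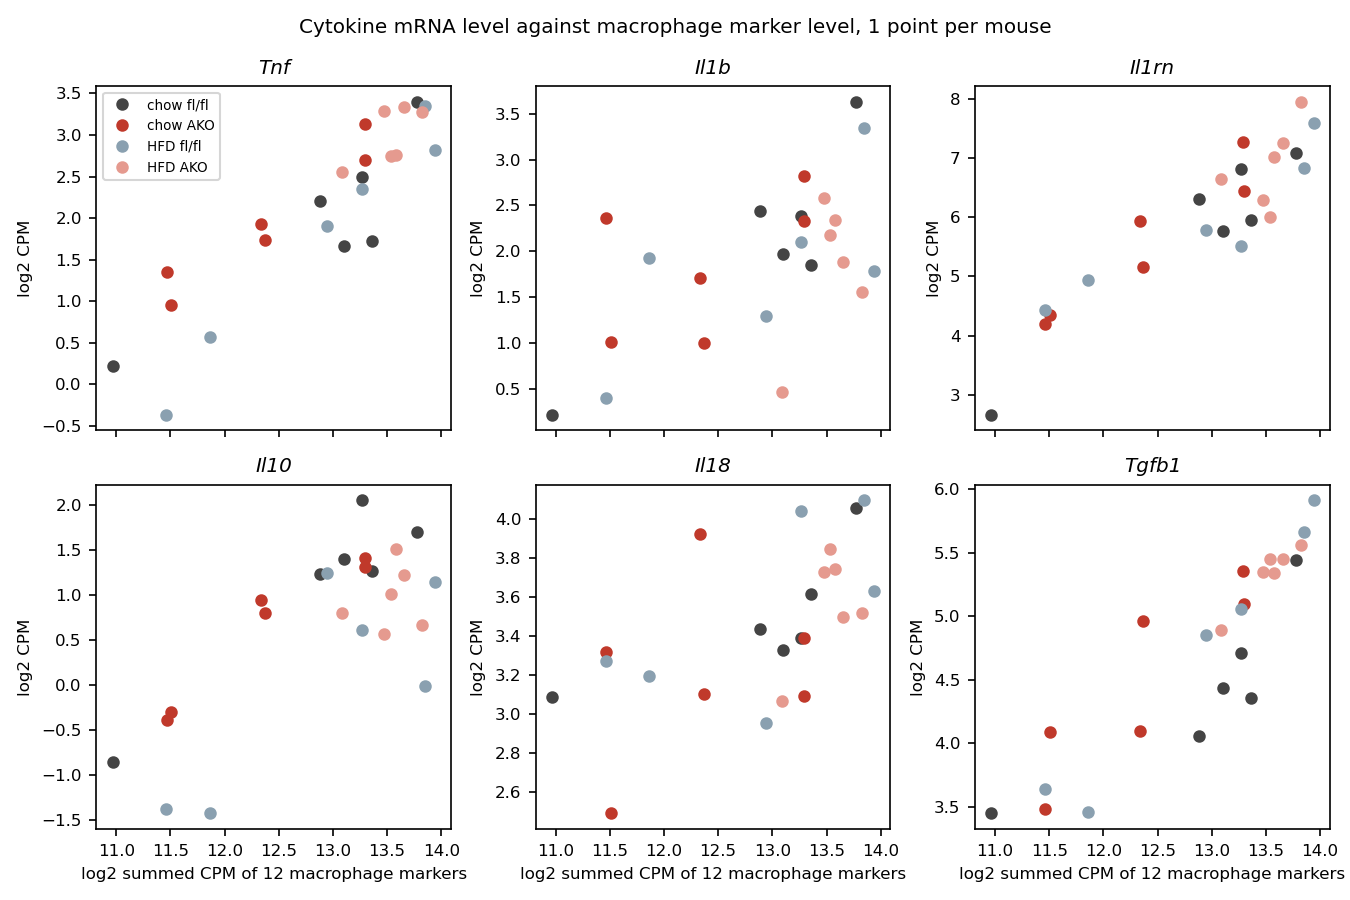
Log2 CPM of each cytokine gene (y axis) against the log2 summed CPM of 12 macrophage markers (x axis), 1 point per mouse, coloured by group. Points of Il1rn, Tnf and Tgfb1 lie along a line (r of 0.916, 0.903 and 0.898), and those of Il1b and Il18 scatter more widely (0.596 and 0.590).

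In Lama4 AKO mice the macrophage marker sum and the estimates of 5 of the 6 members were higher on HFD. In Lama4 fl/fl mice the estimates were higher for 3 members and lower for 3. All 12 markers had higher estimates on HFD in Lama4 AKO mice, with 0 called, and their sum was 1.15 higher on the log2 scale (SE 0.345, exact permutation p = 0.00866), while in Lama4 fl/fl mice it was 0.00 (exact permutation p = 0.994). Adipocyte markers had lower estimates on HFD in Lama4 AKO mice for 8 of 8 genes, with 1 called, and their sum was 27570 ± 10820 CPM on chow and 12390 ± 5744 CPM on HFD (SD, n = 6). Endothelial markers were lower for 4 of 5 genes there, with 0 called, and mesothelial markers for 3 of 4, with 1 called. Of 5 mast cell markers 4 were called higher on HFD in Lama4 AKO mice (median log2 fold change 3.38). Of all genes 1.19% were called higher there and 3.09% lower. In Lama4 fl/fl mice 1 was called higher (median 1.89, with higher estimates for 5 of 5), where 0.186% of all genes were called. Of 8 lipid-associated macrophage markers 7 had higher estimates in Lama4 AKO mice and 4 in Lama4 fl/fl mice, with 0 called. B cell markers had higher estimates for 4 of 4 genes in both genotypes. T and NK cell markers had them for 7 of 8 genes in Lama4 fl/fl and 5 in Lama4 AKO mice. Of the 4 tested neutrophil markers, 4 had lower estimates in Lama4 AKO and 3 in Lama4 fl/fl mice, with 0 called. Their median log2 fold changes were -0.53 and -0.67. Of 6 progenitor and fibroblast markers, 5 had higher estimates in Lama4 AKO mice, with 1 called, and 3 in Lama4 fl/fl mice, with 0 called. The part of these markers in the cytokine values was not tested beyond the scale that follows.

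On a scale relative to macrophage markers, chosen after seeing the data, Il10 was lower on HFD at an exact permutation p under 0.05 in both genotypes. Its level less the marker sum, both as log2 CPM, was 1.10 lower on HFD in Lama4 fl/fl mice (SE 0.321, exact permutation p = 0.0108), where 0.226% of all genes were lower at p under 0.05. In Lama4 AKO mice it was 0.81 lower (SE 0.187), without overlap between groups and with the smallest p the test can give (exact permutation p = 0.00216), but 71.5% of genes were lower there at p under 0.05 and 6.72% were lower without overlap, and the unscaled estimate of Il10 in these mice was 1.196-fold. Tnf on this scale was 0.59 higher in Lama4 AKO than in Lama4 fl/fl mice on HFD (SE 0.206, exact permutation p = 0.0152, against 0.406% of genes higher at p under 0.05) and 0.53 higher on chow (SE 0.219, exact permutation p = 0.0281, against 1.82%). Tgfb1 was 0.62 higher in Lama4 AKO mice on chow (SE 0.262, exact permutation p = 0.0433). For diet in Lama4 AKO mice Il1b was 1.18 lower (SE 0.412, exact permutation p = 0.0152), Il18 0.80 lower (SE 0.344, exact permutation p = 0.0476) and Tgfb1 0.32 lower (SE 0.154, exact permutation p = 0.0498). These were among 24 tests, 6 genes in 4 comparisons. The marker sum brings its own spread between mice into every gene on this scale (SE 0.582 for diet in Lama4 fl/fl mice). Il10 and Tnf followed the sum within groups (r 0.864 and 0.932), and genes that do not follow it gain spread. The shares of all genes given here therefore do not show how unusual Il10 or Tnf is.

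**Figure D4:**
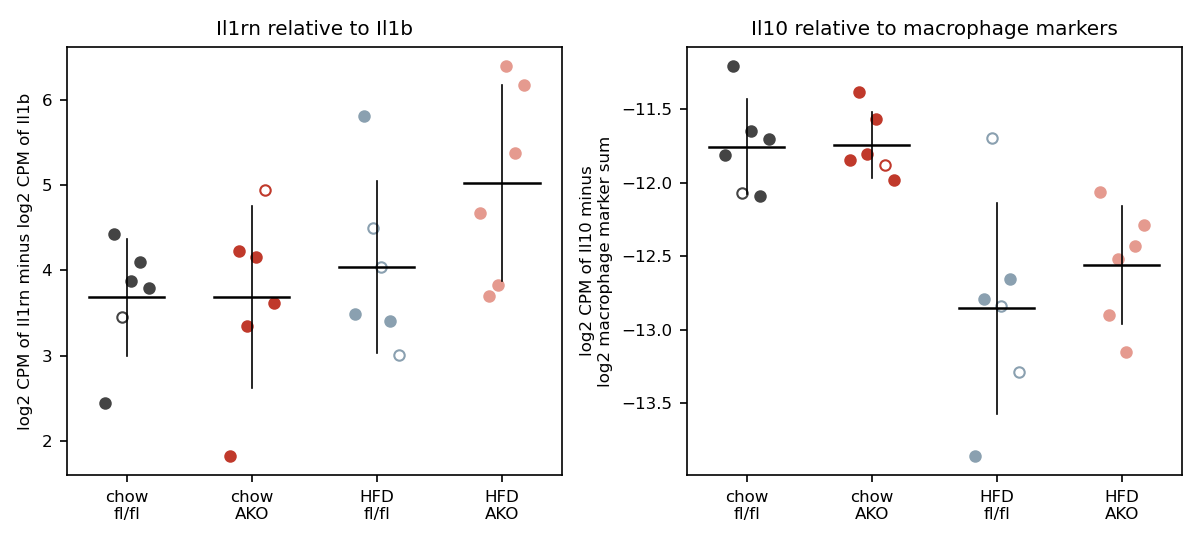
Left, log2 CPM of Il1rn less that of Il1b in each mouse, and right, log2 CPM of Il10 less the log2 macrophage marker sum, by group, with the mean as a bar and the SD as a line (n = 6; open points are the 5 libraries left out in an alternative). Il10 relative to the markers lies lower in the HFD-fed groups, with 2 HFD-fed mice, 1 of each genotype, inside the range of all chow-fed values.

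Among the members themselves, Tnf, Il1rn and Tgfb1 varied together, with r over 24 mice of 0.881 for Tnf and Tgfb1 (rho 0.889), 0.859 for Tnf and Il1rn (rho 0.855) and 0.821 for Il1rn and Tgfb1 (rho 0.809), each with a permutation p of 1e-05 for r. Il10 and Il18 were the pair with the lowest r, 0.295 (rho 0.210, permutation p = 0.161). The genes with the most similar pattern over the 24 mice, by r of log2 CPM, included Rac2 (0.932) and ENSMUSG00000089672 (0.932), which has no symbol in the table, for Tnf, and Bcl2a1a (0.836), Mcemp1 (0.811) and Clec5a (0.806) for Il1b. For Il1rn they were Ifi30 (0.952), Lat2 (0.951) and Ms4a6d (0.951), and for Il10 Btbd11 (0.909), AI662270 (0.873) and Nostrin (0.871). Il18 was most like Ly6a (0.866), Rps20 (0.829) and Dctn5 (0.827), and Tgfb1 most like Sap25 (0.974), St6galnac4 (0.968) and Grn (0.961).

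The pathways around the 6 cytokines were read from 93 listed genes, of which 90 were in the table and 89 were tested. In HFD-fed against chow-fed Lama4 AKO mice 2 of the 89 were called, both lower, against 3.09% of all genes lower and 1.19% higher. Smad7, an inhibitor of TGF-beta signalling, fell by 1.34 on the log2 scale (SE 0.351, edgeR adjusted p = 0.0194), from 9.51 ± 4.02 to 3.77 ± 1.87 CPM (SD, n = 6). Ripk1, a kinase of the TNF receptor complex, fell by 2.40 (SE 0.555, edgeR adjusted p = 0.0137), from 18.5 ± 3.40 to 3.51 ± 2.47 CPM. None of the 89 was called under diet in Lama4 fl/fl mice or between genotypes on either diet. At an unadjusted p under 0.05 edgeR gave 14 of them under diet in Lama4 fl/fl mice, against 9.25% of all genes. Under diet in Lama4 AKO mice 19 were higher and 11 lower at that level, against 39.9% of all genes in either direction.

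Of the 12 receptor genes, 0 were called. Tgfbr1 and Tgfbr2, the 2 chains of the TGF-beta receptor, had log2 fold changes on HFD in Lama4 AKO mice of 1.08 (SE 0.294) and 0.69 (SE 0.218), Tnfrsf1b, a TNF receptor, 1.10 (SE 0.419), and Il10rb, a chain of the interleukin-10 receptor, 0.66 (SE 0.252). Their edgeR adjusted p were 0.0211, 0.0315, 0.0578 and 0.0581, where 22.5% of all genes had at most 0.05. At an unadjusted p under 0.05 there were 4 receptor genes with higher and 2 with lower estimates in that comparison, against 39.9% of all genes in either direction. The lower ones, named after their values were seen, were Il18r1, a chain of the interleukin-18 receptor, at -1.27 (SE 0.464, edgeR adjusted p = 0.0510) and Il1r1, the signalling receptor of interleukin-1, at -0.54 (SE 0.219, edgeR adjusted p = 0.0704). Of 10 tested genes for processing and activation, 0 were called: Furin, a protease that cleaves the Tgfb1 precursor, was 0.69 higher on HFD in Lama4 fl/fl mice (SE 0.188, edgeR adjusted p = 0.399), and Adam17, which sheds TNF from the cell surface, 0.81 higher in Lama4 AKO mice (SE 0.344, adjusted p = 0.0843). Gsdmd, the pore through which Il1b and Il18 leave the cell, was 0.84 higher there (SE 0.361, adjusted p = 0.0879), and Rhbdf2, a partner of Adam17, 0.13 higher (SE 0.309).

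Of 9 binding proteins and inhibitors, Smad7 alone was called. Ltbp1 binds latent TGF-beta, as Nrros does on myeloid cells, and Ltbp2 is of the same family as Ltbp1. Ltbp1, Ltbp2 and Nrros had log2 fold changes in Lama4 AKO mice of 0.24, 0.49 and 0.98 (edgeR adjusted p 0.428, 0.189 and 0.0476). Of 18 signal transducers, Ripk1 alone was called, and Irak1, Tyk2 and Ikbkg, which carry interleukin-1, interleukin-10 and NF-kappaB signals, had 0.50, 0.72 and 0.60 (adjusted p 0.0251, 0.0641 and 0.0591). Of 13 tested response genes of TNF and interleukin-1, 0 were called and the median log2 fold change was -0.04 in Lama4 AKO mice, against 0.00 over all genes. Their 4 genes with the lowest p for diet went both ways there, Nfkb2 (0.43) and Icam1 (0.72) with positive and Relb (-0.50) and Cxcl1 (-0.10) with negative estimates.

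Response genes of interleukin-10 and TGF-beta also held 0 called genes, of 5 and 10 tested. Under diet in Lama4 fl/fl mice, where Il10 had a lower estimate, 3 of the 5 interleukin-10 response genes had higher and 2 lower estimates. At an unadjusted edgeR p under 0.05 there were 2 higher and 0 lower, where 9.25% of all genes had such a p. Bcl3, Il4ra, Arid5a and Sbno2 had log2 fold changes of 0.10, 0.31, 0.18 and 0.15 on HFD in Lama4 AKO mice, whereas Col1a1, Tgfbi and Ccn2, matrix genes raised by TGF-beta, had 0.71, 0.87 and 0.996, and Id1, a transcriptional regulator, had -0.97 (edgeR adjusted p 0.0638, 0.0453, 0.113 and 0.0372). Among 12 tested related ligands 0 were called, with Tnfsf12, a TNF family ligand, at 1.25 (adjusted p = 0.0281), Inhbb, an activin subunit, at -0.79 (0.0279), Ltb, which encodes lymphotoxin beta, at 0.66 (0.605) and Il12b, which encodes an interleukin-12 subunit, at -2.54 (0.0445, all edgeR), the last at means below 3 CPM in every group.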

How the data were processed

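RNA of eWAT from 24 mice was sequenced with Lexogen QuantSeq. The authors deposited unnormalized counts, 1 column per library, and a normalized signal, in which each library's counts are divided by its own size factor. Gene symbols and GRCm38 positions came from the latter. Per the labels, R 4.0.3 and DESeq2 1.30 were used. No column of sample values was left unmapped (0).

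The analysis used R 4.3.3 and edgeR 4.0.16. A gene entered the fit (15020 did) if 3 or more libraries reached 1 CPM. After TMM scaling, the quasi-likelihood model had a coefficient for each of the 4 groups and took in all 24 libraries, and p-values were adjusted over all genes tested (Benjamini-Hochberg). The study used limma-voom, an alternative here (limma 3.58.1), as is DESeq2 1.42.0. Single values were compared with two-sided exact permutation tests over 924 splits, on log2 CPM with a prior count of 2, and correlations with 100000 permutations. The p-values measure the spread between mice, and litters or batches are not given in the sources used here. Other alternatives changed the size factors (RLE), the filter (none, or filterByExpr), the prior count (0.5), the call rule (adjusted p of at most 0.05, or no minimum fold), the samples (only the 2 groups, without 5 libraries, or without each mouse in turn) and the model (a block for the replicate number).

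The members, lists and tests were chosen with earlier results of these data known. Named genes are the 6 members, the pathway genes called in 4 comparisons, up to 4 of each list with the lowest p for diet averaged over genotypes, and for each member the 3 genes with the highest r. One gene that this rule names is not reported here. Library pairs within groups were checked for duplicates, and all 60 differed by far more than counting error. The edgeR step was tested on simulated counts. Cxcr2, Ly6g, Itgb6, Il6, Il1a and 5 epididymis markers were not analysed here.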

Additional observations from a re-analysis of the deposited data

Results flagged for a closer look

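Of 24 groups of 6 mice (6 genes in 4 groups), 3 had a mouse far from the others, where chance flags about 1 in 20 groups. In chow-fed Lama4 fl/fl mice the gap of the lowest mouse to the next was 0.702 of the range for Il1rn and 0.717 for Il10 on the log2 CPM scale (Dixon's test at the 95% level), and both were replicate 1. That mouse also had the lowest macrophage marker sum of all 24, 1999 CPM, and the highest adipocyte marker sum, 47050 CPM. In HFD-fed Lama4 AKO mice replicate 6 was low for Tgfb1, with a gap of 0.664 of the range, and it had the lowest macrophage marker sum of its group, 8703 CPM.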

How the results depend on the processing

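Il10 had 3 to 52 counts in a library, so its values carry a large counting error. With all 24 mice 0 of 6 genes were called under limma-voom, DESeq2, RLE size factors, both other filters, the replicate block, separate fits of 2 groups, adjusted p of at most 0.05 and no fold change criterion, in every comparison each was run on, and also with each mouse left out in turn. Without the 5 libraries 1 gene, Tgfb1, was called for diet in Lama4 fl/fl mice, for diet averaged over genotypes and for HFD-fed knockouts against chow-fed controls, and, in a setting chosen after seeing the data that also drops replicate 1 of the chow-fed controls, 1 was called for diet averaged over genotypes only. The cause was not tested.

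Estimates that turned sign were mostly near 0. Without the 5 libraries, log2 fold changes for diet in Lama4 fl/fl mice were 1.03 for Tnf and 0.59 for Il1b, for diet in Lama4 AKO mice 0.01 for Il1b (0.0134), for genotype on HFD -0.19 for Tgfb1 and for genotype on chow 0.18 for Tnf. Leaving out replicate 1 too gave 0.81 and 0.37 for Tnf and Il1b under diet in Lama4 fl/fl mice, 0.0136 for Il1b under diet in Lama4 AKO mice and -0.19 for Tgfb1 by genotype on HFD. Tnf under diet in Lama4 fl/fl mice was 0.002194 with DESeq2, 0.00253 with RLE size factors and 0.0292 in a fit of only the 2 groups. Limma-voom gave 0.007967 for Il1b under diet in Lama4 AKO mice, and 0.0007738 for Il1b and 0.0258 for Il18 by genotype on HFD, where the fit of only the 2 groups gave 0.0169 for Il18.

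Members with an exact permutation p under 0.05 numbered 0 for diet in Lama4 fl/fl mice, 2 in Lama4 AKO mice and 0 for either genotype comparison. Without the 5 libraries there were 2 for diet in Lama4 fl/fl mice, and relative to macrophage markers there were 1, 4, 1 and 2 in the order diet in Lama4 fl/fl, diet in Lama4 AKO, genotype on HFD and genotype on chow. Without the 5 libraries the difference of Il1rn and Il1b was 1.59 for diet in Lama4 AKO mice (exact permutation p = 0.0433) and -0.29 for genotype on chow. Mice with the same replicate number were not treated as pairs. Over 36 same-numbered pairs, r of the deviations from the group means ran from -0.534 to 0.714, with 15 over 0.1. These values do not settle whether a litter or batch links such mice. With the replicate block the number for diet in Lama4 AKO mice was 0 and Il18 by genotype on HFD was 0.008848, with no call changed.

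With each mouse left out in turn, the numbers of members at an exact p under 0.05 ran from 0 to 1 and from 1 to 3 for diet in Lama4 fl/fl and Lama4 AKO mice, and from 0 to 3 and from 0 to 1 for genotype on HFD and on chow. Log2 fold changes for diet in Lama4 fl/fl mice ran from -0.43 to 0.38 for Tnf, -0.84 to 0.11 for Il1b, -0.51 to 0.24 for Il1rn and -0.0757 to 0.19 for Il18, and for diet in Lama4 AKO mice from -0.22 to 0.20 for Il1b. For genotype on HFD they ran from -0.28 to 0.40 for Il1b and -0.11 to 0.15 for Il18, and on chow from -0.45 to 0.31 for Tnf, -0.64 to 0.0640 for Il1b and -0.0720 to 0.39 for Tgfb1. The difference of Il1rn and Il1b ran from 0.97 to 1.60 for diet in Lama4 AKO mice, 0.71 to 1.34 for genotype on HFD and -0.25 to 0.37 for genotype on chow.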
